A study of Mus musculus with 16 samples.

Results

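The comparison described here asks whether the response of the mouse hippocampus to environmental enrichment depends on the genotype for CREB-binding protein (CBP). For each gene it is the enrichment effect in cbp+/- mice minus the enrichment effect in wild-type mice, called the interaction below. Signals came from 16 Affymetrix whole-transcript expression arrays: 5 of wild-type mice in standard cages, 3 of wild-type mice after 2 weeks of enrichment, 5 of cbp+/- mice in standard cages and 3 of cbp+/- mice after 2 weeks of enrichment. All mice were 3-month-old females from an F2 of C57BL/6J and DBA, and wild-type controls were littermates. The cbp+/- mice are heterozygous for CBP deficiency, with no driver line, other allele or agent named for any group. Each array carried RNA pooled from the hippocampi of 4 mice (64 mice in all, 32 per genotype), so the spread between arrays is the spread between pools. Enrichment meant large group boxes with running wheels, tubing and toys that were rearranged at intervals, so that exercise, company and novelty cannot be told apart.

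The members are the 9197 probe sets, for 8298 genes, that carry exactly 1 gene symbol and have a mean log2 signal of 7 or more over the 16 arrays. They are 42.2% of the 21780 probe sets with 1 symbol that were tested. They were chosen by their mean signal alone, a measure of brightness that takes no account of group. The members just inside the limit were Rrp9, which sits on it, Ttc26 (mean log2 signal 7.0007) and Prkg1 (7.0007), and the probe sets just outside it were Mir3107 (6.9998), Sox1ot (6.9997) and Ddt (6.9991).

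CBP, the product of Crebbp, is a histone acetyltransferase and a coactivator that CREB recruits to promoters when neurons are active. Enrichment is known to raise neuropeptide and growth factor genes in the hippocampus and to increase the survival of newborn granule cells. If CBP were needed for a gene's response, the housing effect would differ between the genotypes. A positive interaction says that the enriched minus standard-cage difference was higher in cbp+/- mice than in wild-type mice. It can come from a lower value in enriched wild-type mice as well as from a higher value in enriched cbp+/- mice, so both housing effects are given for many of the genes named.

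No gene had an interaction that passed the test. With limma and Benjamini-Hochberg adjustment, 0 of the 9197 members were called at an adjusted p under 0.05 (0%), and 0 of the 21780 probe sets tested (0%). The smallest adjusted p among members rounds to 1. At an unadjusted p under 0.05 there were 66 members (0.718%), against 579 of all probe sets tested (2.66%). Of these, 54 members had a positive interaction (0.587%, against 0.372% of all tested) and 12 a negative one (0.13%, against 2.29%). Down-weighting discordant arrays with limma's array weights called 69 of the 9197 members at an adjusted p under 0.05. The share over all probe sets tested is not given for this setting, so the 69 are not a result about members. Of the genes named below 8 were among them: Serpina3n (adjusted p = 0.0148), Fbxl20 (0.0255), Dync1li1 (0.0267), Slc27a2 (0.0281), Insyn2a (0.0373), Cstf1 (0.0376), Idnk (0.0437) and Ammecr1l (0.0457). These 8 were named by the rank or size of the interaction itself. With the replicate number within each housing as a block, 0 members were called, the smallest adjusted p was 0.731, and 500 members were positive and 100 negative at an unadjusted p under 0.05, 6.52% of members against 6.62% of all tested.

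The size of an interaction that these arrays could resolve was limited. The median standard error over members was 0.19 on the log2 scale, which gives a median 95% interval of 0.40 to either side of the estimate, or 1.32-fold. With the replicate number within each housing as a block, these were 0.10 and 0.22, or 1.17-fold, with the same estimates. Interactions over members ranged from -1.38 for Ttr to 0.67 for Serpina3n, with a standard deviation of 0.12 over members. The middle 50% of members lay between -0.03 and 0.13, and the 5th and 95th percentiles were -0.15 and 0.26. Only 15 members reached 0.5 in either direction, and 1 reached 1. In bulk tissue, a lower signal from fewer cells of a type and from less RNA per cell cannot be told apart.

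The bright members leaned to one side. In all, 5968 of the 9197 members had a positive interaction (64.9%), against 42.5% of all probe sets tested, and the median interaction was 0.04 for members and -0.02 for all tested. After quantile normalization, which gives every array the same distribution, 4565 members were positive (49.6%, against 47.6% of all tested) and the median over members was 0.00. Over 10 classes of equal size from dim to bright, the median interaction went from -0.03 in the dimmest class to -0.08 in the fourth and to 0.06 in the brightest, and after quantile normalization all 10 medians lay between -0.02 and 0.00. The interquartile range of log2 signals over all probe sets was 2.22 to 2.38 on the enriched wild-type arrays, below the 2.49 to 2.58 of standard-cage wild-type arrays. It was 2.37 to 2.54 on the enriched cbp+/- arrays and 2.46 to 2.65 on the standard-cage cbp+/- arrays. The narrower spread of enriched wild-type arrays moved with the positive lean, and its part in the interaction of single genes was not tested beyond the quantile-normalized values given below.

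**Figure D1:**
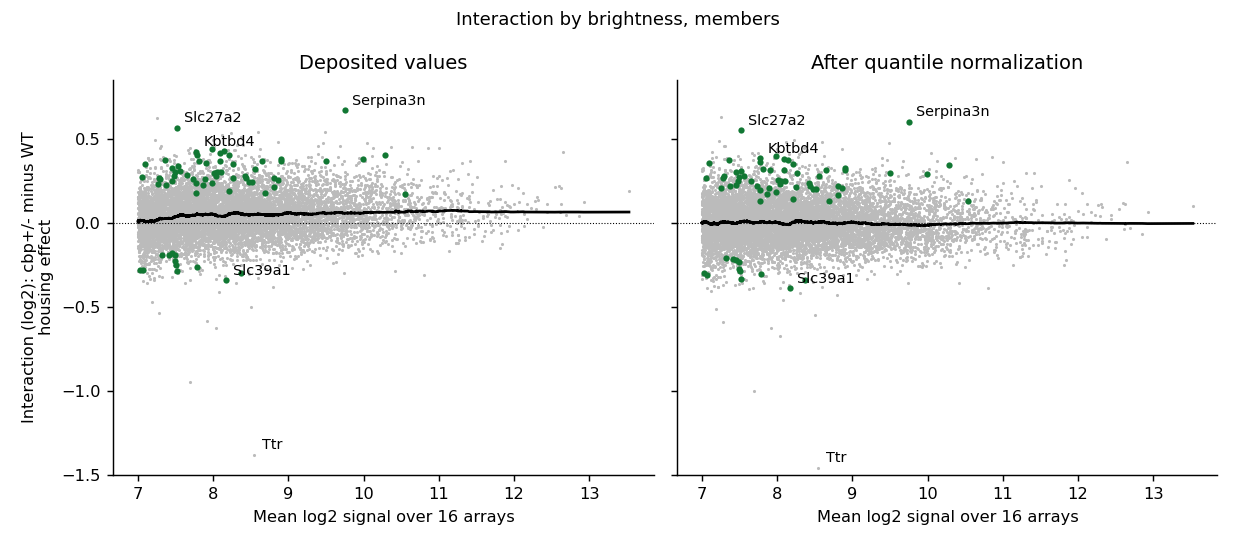
Interaction (log2, y axis) against mean log2 signal over the 16 arrays (x axis) for the 9197 members, as deposited (left) and after quantile normalization (right); green points are the 66 members with an unadjusted p under 0.05 and the black line is a running median. The running median lies above 0 over most of the range on the left and near 0 on the right, while Serpina3n, Slc27a2 and Ttr lie far from the line in both.

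The housing effects that make up the interaction were both small for most members. The median enrichment effect over members was -0.08 in wild-type mice, where 790 members had an unadjusted p under 0.05 (8.59%, against 17.8% of all tested). It was -0.03 in cbp+/- mice, where 260 members did (2.83%, against 2.82%). The genotype difference had a median of 0.00 in standard cages (75 members, 0.815%, against 0.987% of all tested) and 0.04 under enrichment (260 members, 2.83%, against 5.23%). In none of these contrasts did a member have a limma adjusted p under 0.05, the smallest being 0.0695 for enrichment in wild-type mice. The effect was above 0 in 29.5% of members for enrichment in wild-type mice (58.4% of all tested), 41.1% for enrichment in cbp+/- mice (55%), 51.7% for genotype in standard cages (53.7%) and 63.9% for genotype under enrichment (41.7%). These contrasts share arrays with each other and with the interaction. Most clusters of arrays held a single housing, so enrichment effects cannot be fully told apart from differences between such clusters.

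**Figure D2:**
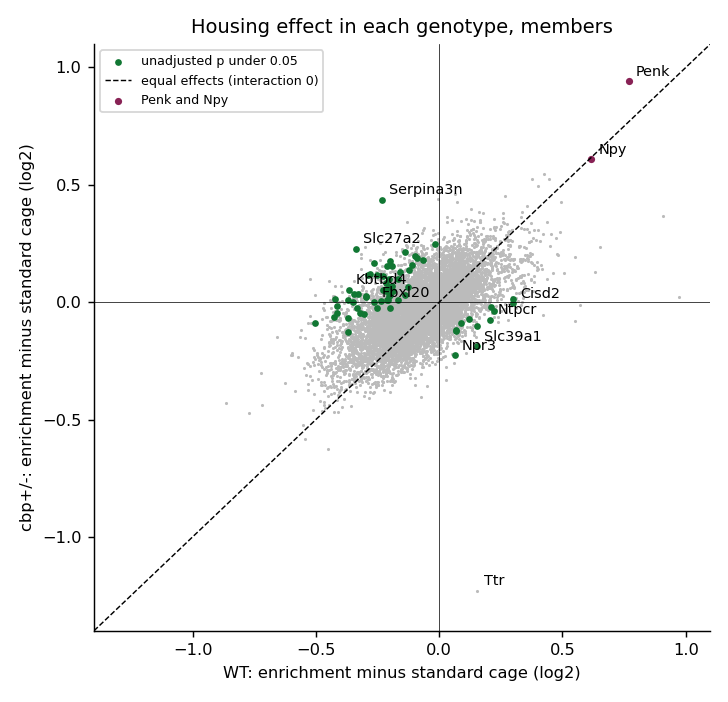
Enrichment minus standard cage (log2) in wild-type mice (x axis) and in cbp+/- mice (y axis) for the 9197 members; on the dashed line both effects are equal and the interaction is 0. Penk and Npy sit near the line at large effects in both genotypes, the 54 green points above the line all have a wild-type effect below 0, and Ttr lies lowest, at 0.15 in wild-type and -1.23 in cbp+/- mice.

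The targeted gene did not separate the genotypes. Crebbp (chromosome 16) had log2 signals of 9.32, 9.41, 9.55, 9.64 and 9.21 on the standard-cage wild-type arrays and 9.25, 9.18 and 9.35 on the enriched ones. The arrays labelled cbp+/- read 9.5, 9.42, 9.68, 9.88 and 9.35 in standard cages and 9.37, 9.33 and 9.37 under enrichment. In all 8 pairs of arrays with the same replicate number and housing the array labelled cbp+/- was the higher, by 0.01 to 0.24. The probe set draws on the whole transcript and the sources used here do not say which part of the gene the mutant allele lacks, so these values do not check the genotype labels. Below, cbp+/- names the arrays labelled so. The interaction of Crebbp was -0.04 (SE 0.16, 95% interval -0.39 to 0.30), and that of Ep300, which encodes the related acetyltransferase p300, was -0.07 (SE 0.21).

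Among neuropeptide genes, Penk and Npy had large enrichment effects in both genotypes, none at a limma adjusted p under 0.05. Cck, given below with the CREB targets, had -0.36 in wild-type and -0.002 in cbp+/- mice. Penk (chromosome 4), which encodes the enkephalin precursor, read 8.97, 9.26, 8.63, 8.14 and 9.21 on standard-cage wild-type arrays and 9.24, 9.40 and 10.18 on enriched ones. On cbp+/- arrays it read 8.48, 8.54, 8.52, 7.78 and 8.75 in standard cages and 9.19, 9.14 and 9.74 under enrichment. The cbp+/- housing groups did not overlap, and the wild-type ones overlapped by 1 array, the standard-cage array at 9.26 lying above the enriched one at 9.24. The enrichment effect was 0.77 (SE 0.28) in wild-type and 0.94 (SE 0.28) in cbp+/- mice, and the interaction was 0.17. Its 95% interval ran from -0.69 to 1.04, and from -0.13 to 0.47 with the replicate block, which leaves room for a difference in either direction.

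Npy (chromosome 6), the precursor of neuropeptide Y, read 8.88, 9.02, 9.32, 8.84 and 9.69 on standard-cage wild-type arrays and 9.63, 9.79 and 9.88 on enriched ones. On cbp+/- arrays it read 9.05, 8.91, 9.16, 8.99 and 9.61 in standard cages and 9.53, 9.60 and 10.11 under enrichment. In each genotype the enriched arrays lay above all standard-cage arrays but the one numbered 5. The effects were 0.62 in wild-type and 0.61 in cbp+/- mice (SE 0.20 each), with an interaction of -0.01 (SE 0.28, 95% interval -0.61 to 0.60, and -0.27 to 0.25 with the replicate block). Vgf, a secreted neuropeptide precursor, had effects of 0.15 and 0.30 and an interaction of 0.16 (SE 0.17).

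Among activity and growth genes, Arc, an immediate early gene of the synapse, had an effect of 0.22 in each genotype and an interaction of 0.00 (SE 0.48), so its interval ran from -1.02 to 1.02, or from -0.50 to 0.50 with the replicate block. Bdnf (mean log2 signal 6.96) and Dcx (6.996), a marker of newborn neurons, fell just short of the brightness limit, as did the dimmer Fos, Npas4 and Igf1. Their interactions were 0.11 (SE 0.15) for Bdnf, -0.11 (SE 0.15) for Dcx, -0.18 (SE 0.25) for Fos, 0.01 (SE 0.26) for Npas4 and -0.02 (SE 0.08) for Igf1. None of these 5 intervals excluded 0.

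The genes named next were those ranked first by the interaction itself, so their values are a description and their unadjusted p-values support nothing. Serpina3n (chromosome 12), which encodes a secreted protease inhibitor known from reactive astrocytes, ranked first. It read 9.99, 10.16, 9.87, 9.89 and 9.62 on standard-cage wild-type arrays and 9.58, 9.73 and 9.70 on enriched ones. On cbp+/- arrays it read 9.56, 9.52, 9.56, 9.16 and 9.79 in standard cages and 10.05, 9.81 and 10 under enrichment. Within cbp+/- mice the housing groups did not overlap. Within wild-type mice 1 standard-cage array lay among the enriched ones. The enrichment effect was -0.23 in wild-type and 0.44 in cbp+/- mice, an interaction of 0.67 (SE 0.18, 95% interval 0.28 to 1.06, 1.59-fold, unadjusted p = 0.00223, limma adjusted p = 1). After quantile normalization it was 0.60.

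The genotype difference of Serpina3n had opposite signs in the housings. In standard cages the cbp+/- mean was 0.39 lower, with 4 of the 5 same-numbered pairs between -0.73 and -0.30 and the fifth at 0.17. Under enrichment it was 0.28 higher, with pairs at 0.47, 0.07 and 0.31, so the pairs of the housings overlapped. Its interaction was 0.81 over replicates 1 and 2 of each group and 0.14 over the 4 remaining arrays that clustered together across all 4 groups.

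Other members at the positive end differed mainly by a lower value on enriched wild-type arrays. Fbxl20 (chromosome 11), an F-box subunit of a ubiquitin ligase that acts at synapses, read 8.60, 8.53, 8.48, 8.39 and 8.34 on standard-cage wild-type arrays and 8.13, 8.23 and 8.25 on enriched ones. The cbp+/- arrays lay between 8.45 and 8.57 in both housings. The enriched wild-type arrays were thus the lowest of all 16, with no overlap. The effect was -0.26 in wild-type and 0.00 in cbp+/- mice (SE 0.06 each), an interaction of 0.27 (SE 0.08, unadjusted p = 0.00682).

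Dync1li1 (chromosome 9), a light intermediate chain of the dynein motor, read 8.53, 8.65, 8.68, 8.61 and 8.75 on standard-cage and 8.24, 8.29 and 8.52 on enriched wild-type arrays. The cbp+/- values were 8.47, 8.55, 8.62, 8.53 and 8.66, and then 8.51, 8.51 and 8.75. Its genotype differences were the most even of the genes shown: the 5 standard-cage pairs lay between -0.10 and -0.05 and the 3 enriched pairs between 0.22 and 0.27. The interaction was 0.32 (SE 0.11, unadjusted p = 0.0103), and with the replicate number as a block its unadjusted p was 0.000174.

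Cstf1 (chromosome 2) encodes a subunit of the factor that stimulates cleavage of nascent messenger RNA before polyadenylation. It had group means of 7.59 ± 0.08 (SD, n = 5) and 7.27 ± 0.09 (n = 3) in wild-type mice. In cbp+/- mice they were 7.51 ± 0.10 (n = 5) and 7.46 ± 0.05 (n = 3). Its interaction was 0.28 (SE 0.09). Rtf2, 0.26 (SE 0.09), which lies within 3 tested genes of Cstf1 on chromosome 2, also ranked among the first 12, and a second close pair among the 66, AI597479 and Fhl2, was noticed after the values were seen.

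Some positive members had their highest group mean on the enriched cbp+/- arrays, though single arrays of other groups overlapped them. Idnk (chromosome 13), a gluconate kinase, read 7.97, 7.99, 7.96, 7.89 and 8.09 on standard-cage wild-type arrays and 7.75, 7.93 and 7.96 on enriched ones. The cbp+/- arrays read 8.07, 7.94, 7.96, 7.88 and 8.16 in standard cages and 8.23, 8.09 and 8.28 under enrichment. The effect was -0.10 in wild-type and 0.20 in cbp+/- mice (SE 0.07 each), an interaction of 0.29 (SE 0.10), and the 3 enriched pairs all lay above the 5 standard-cage pairs. Eid2, named as an inhibitor of differentiation that interacts with p300, had effects of -0.09 and 0.19 and an interaction of 0.28 (SE 0.10).

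Slc27a2 and Kbtbd4 had larger interactions that leaned on 1 array. Slc27a2 (chromosome 2), a fatty acid transporter and acyl-CoA synthetase, read 7.78, 7.72, 7.32, 7.61 and 7.77 on standard-cage and 6.91, 7.31 and 7.68 on enriched wild-type arrays. The effect was -0.34 in wild-type and 0.23 in cbp+/- mice, and its interaction was 0.56 (SE 0.22) with all arrays and 0.37 without the enriched wild-type array at 6.91. Kbtbd4 (chromosome 2), a substrate adaptor of a cullin ubiquitin ligase, read 7.57, 7.64 and 7.14 on enriched wild-type arrays, below the 7.66 to 7.91 of the standard-cage ones. The effect was -0.37 in wild-type and 0.05 in cbp+/- mice. Its interaction was 0.42 (SE 0.16), and 0.26 without the array at 7.14. The same array, enriched wild-type replicate 3, took Dbnl, an actin-binding adaptor, from 0.40 to 0.23 and Kdelr1, the receptor that returns proteins to the endoplasmic reticulum, from 0.43 to 0.28 when left out.

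The remaining positive members by rank were Rab8a (0.28), a vesicle-traffic GTPase, Cdkn1b (0.30), the cyclin-dependent kinase inhibitor p27, Surf1 (0.37), an assembly factor of cytochrome c oxidase, Ammecr1l (0.30) and Dnal1 (0.44), a dynein light chain. A second, dimmer probe set of Cdkn1b had 0.14. In all of them the wild-type effect was below 0, between -0.20 for Cdkn1b and -0.42 for Dnal1, and the cbp+/- effect was between 0.01 and 0.11.

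**Figure D3:**
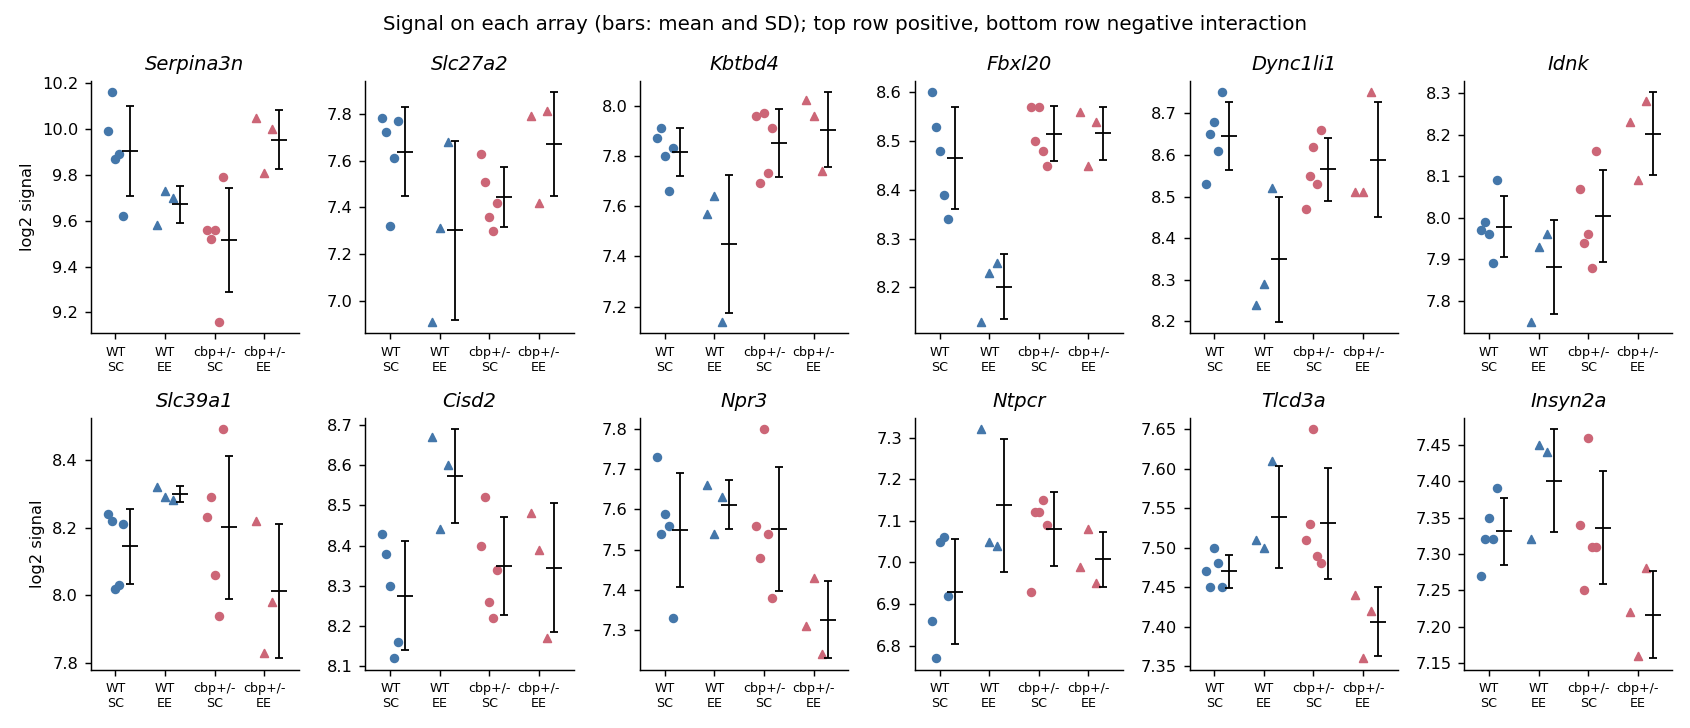
Log2 signal (y axis, scale differs by panel) on each array for 6 members with a positive (top) and 6 with a negative interaction (bottom), by genotype and housing (WT, wild type; SC, standard cage; EE, enrichment); points are arrays and bars the mean and SD of 5 or 3 arrays. Enriched wild-type arrays are lowest for Fbxl20, and enriched cbp+/- arrays are lowest for Tlcd3a.

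Over all 54 positive members the wild-type effect was below 0 in 54 and the cbp+/- effect in 12. Their median effect was -0.23 in wild-type and 0.05 in cbp+/- mice, and the wild-type effect was the larger in size in 46. The median genotype difference was -0.02 in standard cages and 0.27 under enrichment. After quantile normalization all 54 kept a positive sign and 28 an unadjusted p under 0.05. In 9 the unadjusted p stayed under 0.05 whichever array was left out. Selection by the interaction fixes much of this pattern, so it says how these estimates are composed and no more.

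The 12 negative members had the mirror arrangement, with a median effect of 0.15 in wild-type and -0.08 in cbp+/- mice. All 12 kept a negative sign and an unadjusted p under 0.05 after quantile normalization. In only 1 did the unadjusted p stay under 0.05 whichever array was left out. Tlcd3a (chromosome 11), a membrane protein, read 7.47, 7.45, 7.50, 7.48 and 7.45 on standard-cage and 7.51, 7.50 and 7.61 on enriched wild-type arrays. The cbp+/- values were 7.51, 7.53, 7.65, 7.49 and 7.48, and then 7.44, 7.36 and 7.42. The 3 enriched cbp+/- arrays were the lowest of all 16. The interaction was -0.19 (SE 0.07, unadjusted p = 0.00986), while a dimmer probe set of the same gene had -0.07.

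Insyn2a (chromosome 7), which encodes a protein of inhibitory synapses, had effects of 0.07 in wild-type and -0.12 in cbp+/- mice and an interaction of -0.19 (SE 0.07). Its enriched cbp+/- arrays read 7.22, 7.16 and 7.28, overlapping the 7.25 to 7.46 of the standard-cage ones.

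Cisd2 (chromosome 3), an iron-sulfur protein of the endoplasmic reticulum and mitochondrion, read 8.43, 8.38, 8.30, 8.12 and 8.16 on standard-cage wild-type arrays and 8.67, 8.44 and 8.60 on enriched ones, with no overlap. On cbp+/- arrays it read 8.40, 8.52, 8.26, 8.22 and 8.34 in standard cages and 8.48, 8.39 and 8.17 under enrichment, which overlapped. The effects were 0.30 and 0.00 (SE 0.09 each), an interaction of -0.30 (SE 0.13).

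Npr3 (chromosome 15), the clearance receptor for natriuretic peptides, read 7.31, 7.43 and 7.24 on enriched cbp+/- arrays against 7.38 to 7.80 in standard cages, and its interaction was -0.29 (SE 0.13). Slc39a1 (chromosome 3), a zinc importer, read 8.22, 7.83 and 7.98 on enriched cbp+/- arrays against 7.94 to 8.49 in standard cages. Its interaction was -0.34 (SE 0.16), but 0.02 for a second probe set of the gene. Ntpcr, a nucleoside triphosphatase, had -0.28 (SE 0.12), Smad5, a transducer of bone morphogenetic protein signals, -0.26 (SE 0.12) and the transcription factor Tfcp2 -0.19 (SE 0.08). Without enriched wild-type replicate 1 the value of Ntpcr was -0.19.

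The last negative members by rank were Taco1 (-0.25), a translational activator of cytochrome c oxidase, Anapc1 (-0.18), part of the ubiquitin ligase that drives anaphase, Afg1l (-0.25) and the olfactory receptor Olfr1174 (-0.41). Of these only Taco1 had an unadjusted p under 0.05. Without enriched wild-type replicate 3 the value of Afg1l was -0.14, and without enriched cbp+/- replicate 3 that of Olfr1174 was -0.27.

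Arrays of the 2 genotypes with the same replicate number and housing deviated together, less clearly under enrichment. Their residuals correlated at 0.54 to 0.77 in standard cages and at 0.26 to 0.63 under enrichment. The genotype difference within each such pair thus shows the interaction with less of the shared deviation. The pairing was inferred from these same arrays. In 261 members all 3 enriched pairs lay above all 5 standard-cage pairs (2.84%, against 1.44% of all tested), and in 65 all lay below (0.707%, against 2.88%). Together these were 326 members, 3.54%, against 4.32% of all tested. Of the 54 positive members 29 had such pairs, and of the 12 negative members 6. Those members were selected by the interaction, which the same pair differences make up, so these 2 counts support nothing.

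**Figure D4:**
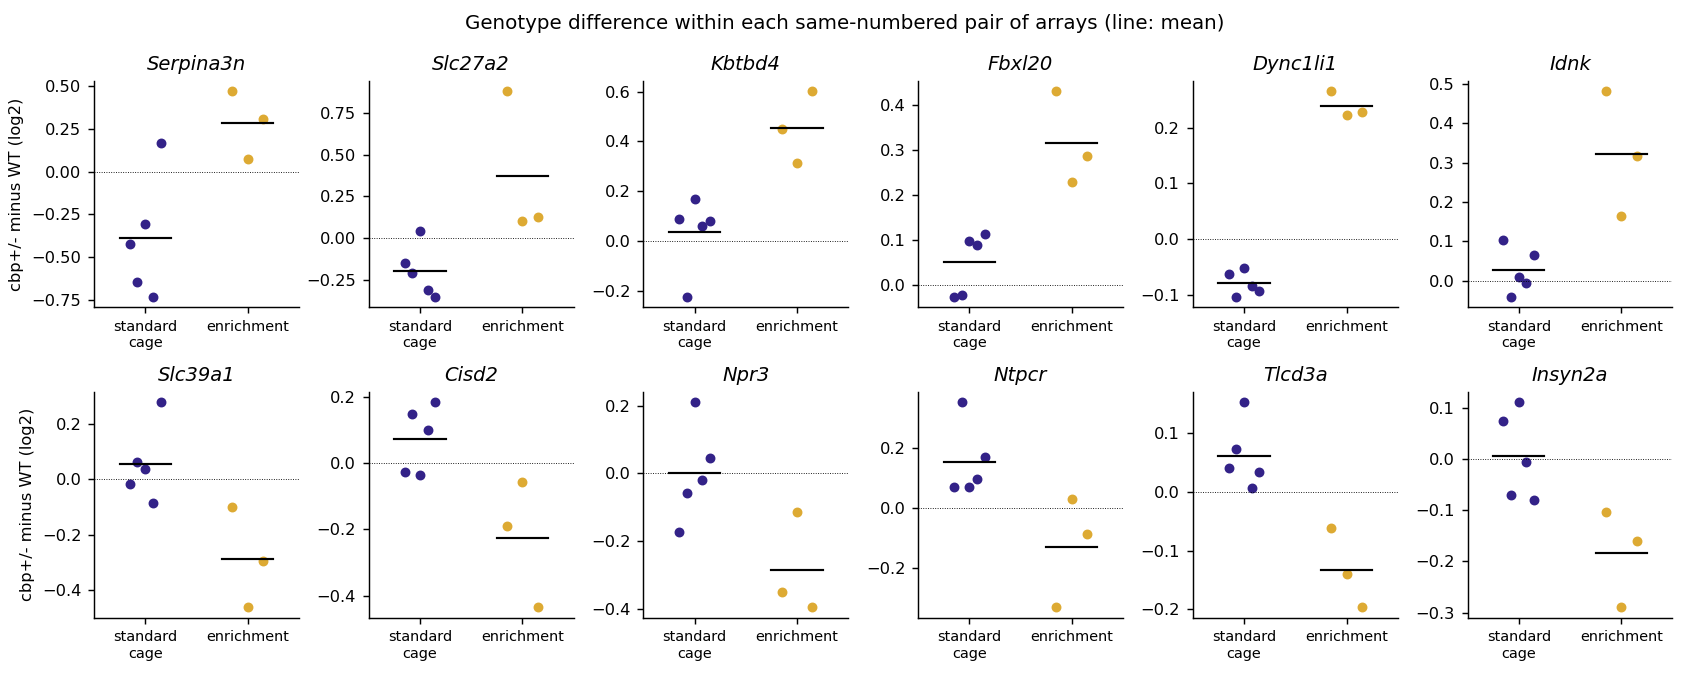
The cbp+/- minus wild-type difference (log2, y axis, scale differs by panel) within each pair of arrays of the same replicate number, 5 pairs in standard cages and 3 under enrichment, for the same 12 members; lines are means. For Dync1li1 the standard-cage pairs lie between -0.10 and -0.05 and the enriched pairs between 0.22 and 0.27, whereas for Serpina3n the pairs overlap.

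The interaction was also taken from 2 sets of arrays that share no array. Replicates 1 and 2 of each group gave 1 estimate. The 4 arrays standard-cage replicate 5 and enriched replicate 3 of both genotypes, which clustered together, gave the other, with 1 array a group and no test. Across the 9197 members the estimates had a Pearson r of -0.29 and a Spearman rho of -0.33, and the same sign in 41.4% of members. After quantile normalization r was -0.29 and the same sign was found in 38.4%. Probe sets are not independent replicates, and the points of each estimate share their arrays. The standard deviation over members was 0.18 for the first and 0.31 for the second.

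Promoter sequence is shown because CREB, which recruits CBP, binds the cAMP response element. The 250 bases before each RefSeq start on GRCm38.p6 were searched for the full element, TGACGTCA, which reads the same on both strands. It was in 1.55% of all 32851 promoter windows and 2.78% of the 8820 windows of member genes, or, counted by gene, in 1.77% of all 27025 genes and 3.36% of 6719 member genes. Counting only genes with a promoter window, it was in 1 of 15 positive and 0 of 11 negative genes named for the interaction. It was also in 3 of the 6 CREB-target members with a window, out of 9 members. That list is made of CREB targets, so its share supports nothing. The shorter TGACG, on either strand and contained in the full element, was in 19.8% of all genes and 32.8% of member genes. Stretches of 100 bases are given for Idnk, the positive member that holds the full element, for Errfi1, a glucocorticoid-responsive member with an interaction of 0.28, and for Pcsk1, a prohormone convertase with -0.15. Those of Idnk and Errfi1 end at the start and that of Pcsk1 ends 24 bases before it. All lie on the plus strand, with the element in capitals, at chr13:58157549-58157648, chr4:150854970-150855069 and chr13:75089733-75089832.
Idnk: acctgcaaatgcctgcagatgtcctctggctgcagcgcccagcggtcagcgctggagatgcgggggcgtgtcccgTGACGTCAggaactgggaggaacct
Errfi1: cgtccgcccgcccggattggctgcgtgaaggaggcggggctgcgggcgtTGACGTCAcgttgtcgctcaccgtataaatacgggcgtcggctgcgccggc
Pcsk1: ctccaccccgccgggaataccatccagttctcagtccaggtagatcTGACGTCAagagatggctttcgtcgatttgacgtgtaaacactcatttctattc
The element begins 25, 51 and 78 bases before the start in these 3 genes. Their interactions differ in sign, and a match is a description of letters, not a bound site. Scg2 and Sst, members of the CREB-target list, hold it too.

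The gene lists gave no member with an unadjusted p under 0.05 in any of the 24 lists, and none with a limma adjusted p under 0.05. With the replicate block, 5 of 28 oxidative phosphorylation members had an unadjusted p under 0.05, all positive. The other lists, most of them shorter, held 0 to 3 such members. Pyramidal markers had 2 positive and 1 negative of 12, and the glucocorticoid and newborn-neuron lists 2 positive of 9 each. Over all members the share was 6.52%, with 500 positive and 100 negative. The lists are therefore described by the count of positive members and the median. Beside these stand 64.9% positive (49.6% after quantile normalization) and a median of 0.04 over all members. Counts and medians below are first as deposited and then after quantile normalization. Of the 21 lists with 5 or more members, 7 had a median that turned sign with quantile normalization, 10 had one that did with replicates 1 and 2 alone, and 14 had one that did when some single array was left out. Leaving out enriched wild-type replicate 3 turned 9 of them. Acetylation came first by role: of 16 acetyltransferases, CREB factors and coactivators, 6 and then 5 were positive and the median was -0.04 and -0.10, and 0.02 without standard-cage wild-type replicate 5, from Atf1 at -0.22 to Hat1 at 0.23. Kat5, the catalytic subunit of the NuA4 complex, had 0.21 (SE 0.11). Of 14 deacetylases 13 and then 11 were positive, with a median of 0.08 and 0.03, and -0.04 without enriched wild-type replicate 3. Single values went from Hdac9 at 0.00 to Hdac6 at 0.17, which was -0.14 without that array. Sirt3, the mitochondrial deacetylase, had 0.15 (SE 0.17).

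Among the 9 CREB-target members 7 and then 5 were positive, and the median was 0.16 and 0.10. It was 0.05 without enriched wild-type replicate 3 and -0.03 from replicates 1 and 2. Cck, the cholecystokinin precursor, had 0.36, from effects of -0.36 in wild-type and 0.00 in cbp+/- mice. Nrn1, a neurite growth factor, had 0.28 and Sst, the somatostatin precursor, 0.22, whereas Pcsk1 was at -0.15. Without enriched wild-type replicate 3 Cck had 0.04, Nrn1 0.05 and Sst 0.07. Of 16 immediate early genes 9 and then 7 were positive with a median of 0.03 and -0.02, and -0.16 without the same array, from Egr1 at -0.22 to Dusp6 at 0.19, and Homer1, a postsynaptic scaffold, at -0.15 (SE 0.12). Its effects were 0.28 in wild-type and 0.13 in cbp+/- mice. Of 9 neurotrophin and growth factor genes 6 and then 2 were positive, with a median of 0.03 and -0.02, and -0.08 without the same array, with the neurotrophin receptor Ntrk3 at 0.22 and Vegfa at 0.03. Without that array Dusp6 had -0.14 and Ntrk3 0.09, and without standard-cage cbp+/- replicate 3 Egr1 had -0.00.

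Genes of newborn neurons and of proliferation had medians close to that of all members. Of 9 newborn-neuron members 6 and then 5 were positive with a median of 0.05 and 0.00, from Sox11 at -0.04 to Dpysl3 at 0.23 (SE 0.14), the latter a regulator of axon growth. Of 5 stem and proliferation members 2 were positive in both, with a median of -0.01 and -0.04, and 0.07 without enriched cbp+/- replicate 2, and Ccnd2, a cyclin needed for adult neurogenesis, had 0.08. Mature granule cell markers had 4 and then 2 of 9 positive and a median of -0.01 and -0.06, and 0.03 without standard-cage cbp+/- replicate 5, with Stxbp6 at -0.20 and Prox1, the transcription factor of granule cell identity, at -0.18. Pyramidal cell markers had 11 and then 6 of 12 positive and a median of 0.05 and 0.00, and -0.02 without enriched wild-type replicate 3, with Pcp4, a calmodulin-binding peptide, the exception at -0.31 (SE 0.18) and Dcn highest at 0.33. Without that array Pcp4 had -0.14 and Prox1 -0.05. Dcn is also on the list of meninges and blood markers, where it was the positive member.

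Excitatory synapse genes had 22 and then 16 of 23 positive and a median of 0.09 and 0.02, and 0.01 without enriched wild-type replicate 3. Camk2b, a calcium-dependent kinase subunit, was highest at 0.23, or 0.11 without that array, and Slc17a7, the vesicular glutamate transporter, lowest at -0.05, and the receptor subunit Grin2b had 0.15 (SE 0.13). GABA genes had 8 and then 4 of 13 positive and a median of 0.05 and -0.01, and -0.05 without the same array, with the receptor subunit Gabra4 at -0.13.

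Among glial and vascular lists, oligodendrocyte genes had 14 and then 12 of 15 positive and a median of 0.13 and 0.08. Cnp and Mag, both myelin proteins, were highest at 0.39 and 0.37, from wild-type effects of -0.46 and -0.40 and cbp+/- effects of -0.06 and -0.03. Without enriched wild-type replicate 3 they had 0.17 each and the median of the list was 0.02. Bcas1, a marker of myelin-forming cells, had 0.28 (SE 0.18). Astrocyte markers had 8 and then 5 of 15 positive and a median of 0.01 and -0.05, with Aldoc, a glycolytic enzyme, at 0.37 and the glutamate transporter Slc1a3 at -0.17. Without the same array the median was -0.07 and Aldoc had 0.12. Microglial markers had 6 and then 4 of 7 positive with a median of 0.06 and 0.04, and -0.01 without enriched cbp+/- replicate 3, and Cx3cr1, the fractalkine receptor, at -0.17. Endothelial and mural markers had 7 and then 6 of 8 positive with a median of 0.14 and 0.09, and 0.03 without enriched wild-type replicate 3, led by Itm2a at 0.22 and Rgs5 at 0.21, the latter at 0.03 without enriched cbp+/- replicate 3.

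**Figure D5:**
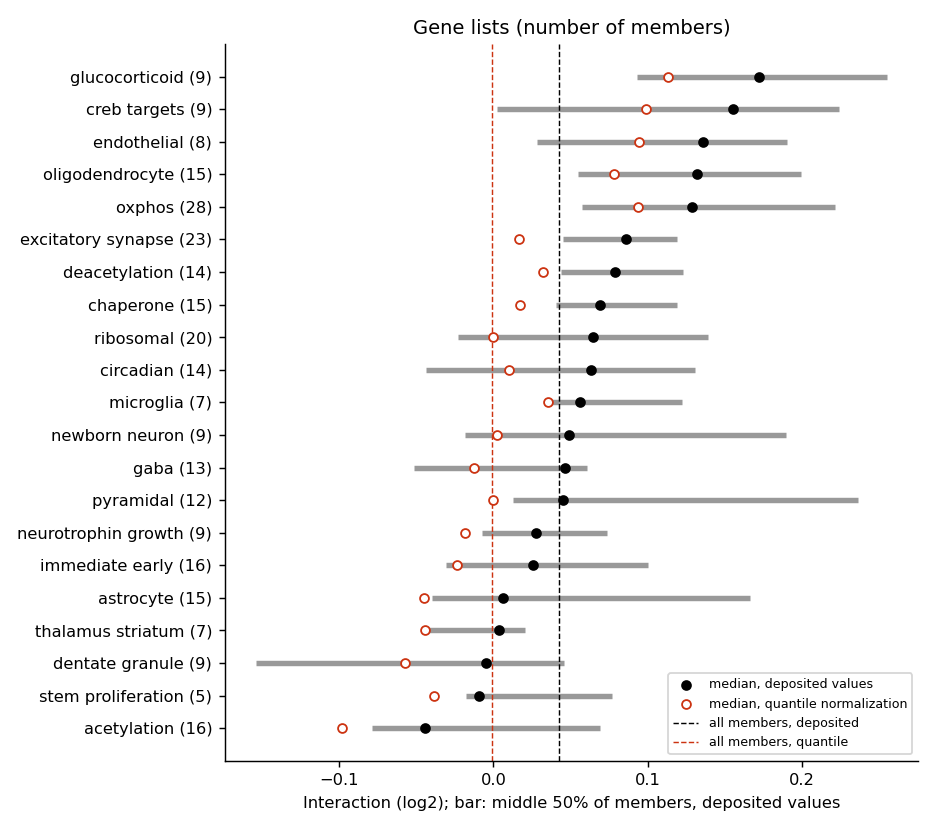
Median interaction (log2, x axis) of each gene list with 5 or more members, as deposited (filled) and after quantile normalization (open); bars span the middle 50% of a list's members and dashed lines the medians over all members. The glucocorticoid list lies highest in both, at 0.17 and 0.11, and the acetylation list lowest, at -0.04 and -0.10.

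All 9 glucocorticoid members were positive in both, with a median of 0.17 and 0.11, and 0.11 to 0.27 over single arrays left out. These were the receptors Nr3c1 (0.09) and Nr3c2 (0.17) and the targets Zbtb16, Sgk1, Fkbp5, Klf9, Mt2, Errfi1 and Mt1, from 0.07 for Zbtb16 to 0.31 for Mt1. Some turned sign when a single array was left out. At their lowest Mt2 had -0.30 (without enriched cbp+/- replicate 3), Sgk1 -0.04, Mt1 -0.04 and Zbtb16 -0.03. Errfi1, a feedback inhibitor of the epidermal growth factor receptor, read 8.72, 8.76, 9.18, 8.79 and 8.88 on standard-cage and 8.72, 8.80 and 8.45 on enriched wild-type arrays. In cbp+/- mice it read 8.58, 8.61, 9.27, 8.70 and 8.76, and then 9.05, 8.91 and 8.62. Replicate 3 was the highest standard-cage array in both genotypes, and the housing groups overlapped in both. Its interaction was 0.28 (SE 0.22) and its unadjusted p with the replicate block was 0.00581.

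Of 28 oxidative phosphorylation members 23 and then 20 were positive, with a median of 0.13 and 0.09. Uqcrc1 and Uqcrq, subunits of complex III, were highest at 0.45 and 0.41, and Cox5a, of complex IV, was lowest at -0.13. Without enriched wild-type replicate 3 Uqcrc1 had 0.16 and Cox5a 0.14, and without enriched cbp+/- replicate 3 Uqcrq had 0.15. Atp5b, of the ATP synthase, had 0.22 (SE 0.17). Taking out single arrays moved the median between -0.05, without enriched cbp+/- replicate 3, and 0.24, without standard-cage cbp+/- replicate 5. Both arrays stood high in these genes, by 0.44 and 0.48 over the mean of all 16, beside 0.35 for standard-cage and 0.23 for enriched wild-type arrays of the same numbers.

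Of 15 chaperone members 15 and then 11 were positive at small values, median 0.07 and 0.02, and 0.01 without enriched wild-type replicate 1, and Hspa8, the constitutive heat shock cognate, had 0.13 (SE 0.07). Ribosomal protein members had 14 and then 10 of 20 positive, median 0.06 and 0.00, and -0.05 without enriched cbp+/- replicate 3, with Rps19 at -0.18. Circadian members had 9 and then 7 of 14 positive, median 0.06 and 0.01, and -0.07 without enriched wild-type replicate 3, with the repressor Bhlhe41 highest at 0.34 (SE 0.27) and at 0.10 without that array. Both interferon members, Stat2 and Ifitm3, were positive, at 0.04 and 0.21.

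Neighbouring tissue was read from its own markers. Of 14 choroid plexus markers only Ttr, the thyroid hormone carrier of that tissue, reached a mean log2 signal of 7. The mean of the list was 5.67 to 6.10 on every array but standard-cage cbp+/- replicate 3, at 7.04. Ttr read 10.90, 8.59, 7.75, 7.14 and 7.18 on standard-cage wild-type arrays, 8.49, 9.56 and 7.34 on enriched wild-type arrays, 9.95, 7.38, 12.69, 7.25 and 8.68 on standard-cage cbp+/- arrays and 7.81, 8.04 and 8.03 on enriched cbp+/- arrays. The 12.69 belongs to that same replicate 3. The interaction of Ttr was -1.38 (SE 1.56), and -0.51 without that array. Markers of thalamus and striatum had a list mean of 6.90 to 7.11 on all arrays and 4 and then 2 of 7 members positive, with the nuclear receptor Rora at -0.16, and those of meninges and blood a mean of 6.29 to 6.56, with 1 of 2 positive.

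Hippocampal identity was checked by the granule, pyramidal and excitatory synapse markers, whose list means lay between 7.55 and 7.88, 8.32 and 8.78, and 9.57 and 10.15 on the 16 arrays. The 7035 deposited probe sets without exactly 1 symbol gave 0 calls at an adjusted p under 0.05 with limma and 368 at an unadjusted p under 0.05 (5.23%).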

How the data were processed

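Hippocampal RNA was hybridised to Affymetrix Mouse Gene 1.0 ST arrays, 1 pool of 4 mice an array. The deposited intensities are on a linear scale (22.12 to 16520.86, array medians 76.7 to 85.46) and had been normalized by the authors with RMA, per the submitters' processing notes, in GeneSpring GX, per the labels' protocols. The sources used here state neither its version nor any baseline step. Scanner files were not used here, so slide and scan date could not be used as batches.

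Log2 was taken with no further normalization. Of 28815 probe sets, 21780 had exactly 1 symbol in the platform's annotation, 1605 had several and 5430 were not listed. A linear model of the 4 group means was fitted over these 21780 with limma 3.58.1 in R 4.3.3 (lmFit, eBayes), with two-sided p-values and Benjamini-Hochberg adjustment across the whole table. The code was tested on simulated data, with planted interactions larger than nearly all seen here and independent noise on each array. That test does not show how well interactions of the sizes seen here are recovered. The number of arrays limits the precision. The labels call the pools independent replicates, and p-values measure the spread between pools.

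The genes named were the 12 per direction with the smallest p, the 5 per direction with the largest interaction at an unadjusted p under 0.05, 12 chosen genes, and the member with the smallest p of each list. Of several probe sets the brightest was used, and 202 members that are unnamed gene models were left out of naming. Further genes in the list paragraphs are each list's ends or were chosen after their values were seen. Members and lists were chosen with earlier results of these data known. Gene positions and promoters are RefSeq's, GRCm38.p6, and 9186 members matched by gene number.

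The replicate numbers were checked for pairing: residuals of wild-type and cbp+/- arrays with the same number correlated at 0.54 to 0.77 in standard cages and 0.26 to 0.63 under enrichment, while the same number across housings gave -0.39 to 0.36. Across genotypes, 8 of 10 standard-cage and 4 of 6 enriched arrays correlated best with the array of their own number. Numbers were therefore taken to pair genotypes within a housing, less clearly under enrichment. The block leaves each interaction estimate as it is, since it is balanced over genotypes, and lowers the residual degrees of freedom from 12 to 6. Arrays were also clustered by signals centred on each probe set's mean, with group differences left in. This put them in 4 sets, used as a block in an alternative. 1 set held all 4 groups, and every other set held arrays of 1 housing only. Outside the set of all 4 groups, enrichment effects and differences between sets cannot be told apart.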

Additional observations from a re-analysis of the deposited data

Results flagged for a closer look

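Within a group of 5 arrays, an array was singled out where its gap to the nearest other array, as a share of the group's range, passed Dixon's critical value of 0.71. This was tried on 116 groups of named members, found in 5, and chance gives about 1 in 20. All 5 were standard-cage cbp+/- groups.

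Tlcd3a had a share of 0.757, with replicate 3 at 7.65 and the other 4 arrays at 7.48 to 7.53, and its interaction without that array was -0.16. Errfi1 had 0.745, with replicate 3 at 9.27 above 8.58 to 8.76, and an interaction of 0.41 without it. Cx3cr1 had 0.742, with replicate 3 at 7.53 below 7.78 to 7.87, and -0.23 without it. Replicate 3 was also the array with the highest choroid plexus markers, at 7.04. Dnal1 had 0.725, with replicate 4 at 7.80 below 8.06 to 8.15, and 0.38 without it. Penk had 0.717, with replicate 4 at 7.78 below 8.48 to 8.75, and an interaction of 0.02 without it. The part of these arrays in the interactions was not tested beyond leaving each out.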

How the results depend on the processing

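The count of members called at an adjusted p under 0.05 was 0 in every alternative tried but limma's array weights, which gave 69. At an unadjusted p under 0.05 the counts of positive and negative members, 54 and 12, were 30 and 37 with quantile normalization, 23 and 0 when only members were fitted, 18 and 0 with a trended, robust eBayes, and 1369 and 320 from replicates 1 and 2 alone. They were 195 and 44 with the replicate number over all arrays as a replicate block, 500 and 100 with the replicate block by housing, 344 and 76 with array sets as a block and 1043 and 260 with array weights. Quantile normalization with the replicate block, added after seeing the data, gave 297 and 314. Leaving out single arrays gave 34 to 146 positive and 4 to 32 negative. Apart from the replicate block by housing, the share over all probe sets tested is not given for these alternatives. Their counts are therefore not results about members. The positive count passed 1.5 times its value without enriched wild-type replicate 2 (146) or 3 (145), standard-cage cbp+/- replicate 3 (104) or 5 (90), enriched cbp+/- replicate 2 (88) or standard-cage wild-type replicate 3 (84), and was 34 without enriched cbp+/- replicate 1 or 3. The negative count was 32 without enriched wild-type replicate 3, 25 without standard-cage cbp+/- replicate 3 or 5, 21 without enriched and 20 without standard-cage wild-type replicate 1, 7 without standard-cage cbp+/- replicate 1 and 4 without enriched cbp+/- replicate 3. Signs turned for Arc with quantile normalization (-0.046, with or without the block), array weights (-0.094) and replicates 1 and 2 (-0.37), for Crebbp (0.070 with array weights, 0.039 with replicates 1 and 2) and Ep300 (0.033 and 0.094), and with replicates 1 and 2 for Vgf (-0.031) and Gabra4 (0.056). Within the array set of all 4 groups, added after seeing the data, they turned for Itm2a (-0.050), Ifitm3 (-0.48) and Npy (0.32). Over single arrays left out, Arc ran from -0.26 to 0.23, Npy from -0.19 to 0.11, Crebbp from -0.097 to 0.036, Ep300 from -0.17 to 0.029, Penk from -0.018 to 0.46, Ifitm3 from -0.012 to 0.51, Gabra4 from -0.23 to 0.034 and Ccnd2 from -0.038 to 0.17. Of the 21 gene lists with 5 or more members, the sign of the median turned in 7 with quantile normalization (pyramidal and ribosomal lists to 0.00), 8 with array weights, 10 with replicates 1 and 2 alone, 2 within the array set of all 4 groups and 9 without enriched wild-type replicate 3, and without that array 4 more medians were smaller by over 1.5 times. With replicates 1 and 2 the medians were -0.086 for immediate early genes, -0.031 for CREB targets and -0.025 for deacetylases. The causes were not tested, beyond the fewer arrays or genes that an alternative uses by construction.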
